A study of Mus musculus with 6 samples.

Results

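Notch receptors and their ligands were followed across 6 primary thymic lymphomas of Ikaros-deficient mice, on the 17 probe sets whose annotated gene symbol was exactly Notch1, Notch2, Notch3, Notch4, Dll1, Dll4, Jag1 or Jag2, of 45037 probe sets on the array that were not controls. The members are 8 of the 18193 genes that had a probe set with 1 symbol. A probe set is a group of short oligonucleotides that together give 1 intensity for a transcript. The 3 Notch1f/f tumours came from mice of the genotype IkL/L Notch1f/f CD4-Cre+, at an age of 8 to 10 weeks, and their labels give a deletion of the Notch promoter and exon 1. The 3 Notch1+/+ tumours came from mice of the genotype IkL/L Notch1+/+ CD4-Cre+, at an age of 18 to 20 weeks. All 6 mice therefore carried the IkL allele of the Ikaros gene on both chromosomes and a Cre recombinase driven by CD4 sequences, which works in developing T cells. Age and genotype changed together and cannot be told apart. Tumours were from separate mice, with 1 array each, and the disrupted tumour tissue was not sorted into cell types.

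Notch receptors are membrane proteins that are cut after a ligand on a neighbouring cell binds them, which frees an intracellular part that enters the nucleus and activates genes together with the DNA-binding protein CSL, encoded by Rbpj. Notch1 commits thymus-seeding progenitors to the T cell lineage, where Dll4 on thymic epithelium is the ligand that acts, and activated Notch1 or Notch3 can drive T cell leukaemia in mice. In Ikaros-deficient mouse T cell leukaemia, loss of 5′ sequence of Notch1 is known to be compatible with shorter transcripts that start inside the gene and encode a receptor that needs no ligand. The positions of the probe sets within the genes were not looked up, so which forms of Notch1 each probe set reads is not known here.

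In the RefSeq annotation of assembly GRCm38.p6, Notch1 lies on chromosome 2, from 26457902 to 26503822, with Dll4 and Jag1 on the same chromosome. Notch3, Notch4 and Dll1 lie on chromosome 17, Notch2 on chromosome 3 and Jag2 on chromosome 12. The 250 bases before the annotated start of Notch1 (chr2:26503823-26504072, minus strand) are shown because the floxed allele was labelled as losing the promoter. The same stretch of Notch3 (chr17:32166891-32167140, minus strand), which was not targeted, is shown beside it, since Notch1 and Notch3 were the brightest members. The annotated starts used can lie inside the RefSeq gene, as for Notch3, whose gene ends at 32166896. Capitals mark GGGCGG on either strand, the core of the GC box bound by Sp1-type factors.
Notch1 promoter: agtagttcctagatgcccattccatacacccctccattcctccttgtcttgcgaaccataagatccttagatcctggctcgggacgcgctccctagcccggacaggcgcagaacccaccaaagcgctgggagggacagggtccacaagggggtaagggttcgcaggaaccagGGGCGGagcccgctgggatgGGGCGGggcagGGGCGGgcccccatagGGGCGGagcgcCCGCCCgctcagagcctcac
Notch3 promoter: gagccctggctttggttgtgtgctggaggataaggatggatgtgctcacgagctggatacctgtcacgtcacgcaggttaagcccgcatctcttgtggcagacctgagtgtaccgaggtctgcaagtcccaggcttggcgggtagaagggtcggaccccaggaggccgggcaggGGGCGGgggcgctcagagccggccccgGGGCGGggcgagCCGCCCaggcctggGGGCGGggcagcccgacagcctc
The Notch1 stretch held 5 such matches and 66.0% G and C, and the Notch3 stretch held 4 matches and 68.8% G and C. Among 32851 mouse promoter windows of this length from the same table, 32.7% held at least 1 match and 4.09% held 4 or more. Of the 8 members, 5 had a match, namely Notch1, Notch2, Notch3, Dll4 and Jag2, and 3 had none. Neither TGGGAA, a core shared by CSL and Ikaros sites, nor TATAAA was found on either strand in any of the 9 windows of the members, where Dll1 has a pair of annotated starts. These were found in 21.6% and 12.4% of all windows. A match of letters describes the window and is not evidence of binding.

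No receptor or ligand passed an adjusted p of 0.05 between the genotypes, and signals of the members ranged from bright for Notch1 and Notch3 to dim for Notch4 and the ligands, although probe sets of different genes are not on 1 scale. Notch1 and Notch3 had an intensity of at least 219 on all their probe sets in all 6 tumours, Notch2 had 93.6 to 139.0 on its brighter probe set, and Notch4, Dll1, Dll4 and Jag1 did not exceed 15.8 on any array. Intensities are MAS5 signals on a linear scale, scaled to the same trimmed mean on every array. Of the 17 probe sets, 10 passed the filter on low values, a mean log2(intensity + 16) of at least 4.56, and were tested with limma across 27022 probe sets, with Benjamini-Hochberg adjustment. None of the 10 was called, and 5 of the 27022, which is 0.0185%, were called in either direction. Before adjustment, 2 of the 10 had p under 0.05, both higher in the Notch1f/f tumours, against 13.5% of all tested probe sets. The log2 difference was above 0 for 9 of the 10, with a median of 0.16, against 45.0% of all tested probe sets and a median of -0.04. With 3 arrays per group, precision is limited throughout. Fold changes refer to log2(intensity + 16), where the added 16 makes changes of dim genes look smaller.

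The tumours carried the RNA of T-lineage cells that their labels name. All 15 measured markers of T cells and thymocytes reached an intensity of 100 on at least 1 array, and Cd3g, a chain of the T cell receptor complex, had 1679 to 3112. The summed intensity of these markers was 23860 to 29237 in Notch1f/f tumours and 20671 to 23501 in Notch1+/+ tumours, so the groups did not overlap. Of the 15, 11 had a log2 difference above 0, while Rag2, Ptcra, Rag1 and Zap70 were below, with Rag2 at -1.60. Sums were also higher without overlap for macrophage markers (1507 to 2917 in Notch1f/f tumours against 272 to 963 in Notch1+/+ tumours), dendritic cell markers (636.2 to 4590 against 246 to 635.8) and B cell markers (1288 to 3490 against 488 to 1078.5). The log2 difference was above 0 for 10 of 11 macrophage, 9 of 10 dendritic cell and 8 of 9 B cell markers. Those below 0 were Adgre1 (-0.19), Xcr1 (-0.25) and Blk (-0.58). The B cell sum was mostly Ighm, an immunoglobulin heavy chain, and the other 8 B cell markers summed to 93.3, 127.4 and 337 in Notch1f/f tumours 1, 2 and 3, and to 61.8, 222 and 80.5 in Notch1+/+ tumours 1, 2 and 3, which overlap. Without its brightest marker, Cd74, the dendritic cell sum overlapped as well, while the T cell and macrophage sums stayed apart without theirs. In every tumour most of the dendritic cell sum was Cd74, H2-Aa, H2-Ab1 and H2-Eb1. Flt3, Siglech, Zbtb46 and Xcr1, of the same list, did not exceed 18.4 on any array. The sum of 4590 was of Notch1f/f tumour 3, against 943 and 636.2 in Notch1f/f tumours 1 and 2. Fibroblast markers summed to 4624 to 6962 in Notch1f/f tumours and 5134 to 7367 in Notch1+/+ tumours, with 10 of 11 below 0 in log2 difference. Most of the fibroblast sum was Thy1, which is also among the T cell markers and was the 1 marker above 0. The other 10 summed to 919, 1180 and 2000 in Notch1f/f tumours 1, 2 and 3. In Notch1+/+ tumours 1, 2 and 3 they summed to 2249, 2711 and 1477, and the groups overlapped. Except in Notch1+/+ tumour 2, most of this remaining sum was Pdgfrb. Pdgfrb had 813.0, 1029.4 and 1827.1 in Notch1f/f tumours 1, 2 and 3, and 1976.2, 1282.4 and 1103.4 in Notch1+/+ tumours 1, 2 and 3. The overlap of the sum therefore says little about the dimmer markers. The collagens Col1a2, Col3a1, Col1a1 and Col6a1 had log2 differences of -2.21, -1.53, -0.87 and -0.14, each with overlapping groups. No marker of these 5 lists passed adjusted p. Between 23.1% and 25.05% of probe sets on an array had an intensity over 100, and no pair of arrays held identical values. In bulk tumour RNA, fewer cells of a type and less RNA per cell cannot be told apart.

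Notch1, the floxed receptor, was bright in every tumour of both genotypes. On probe set 1418634_at it had intensities of 3294, 3043 and 3418.5 in Notch1f/f tumours 1, 2 and 3, and 3636.5, 2532 and 2838 in Notch1+/+ tumours 1, 2 and 3. The lowest and the highest values were both of Notch1+/+ tumours, and the Notch1f/f values lay between them. This gave a log2 difference of 0.13 ± 0.16 (SE), with a 95% interval of -0.24 to 0.50 (limma adjusted p = 0.752).

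**Figure D1:**
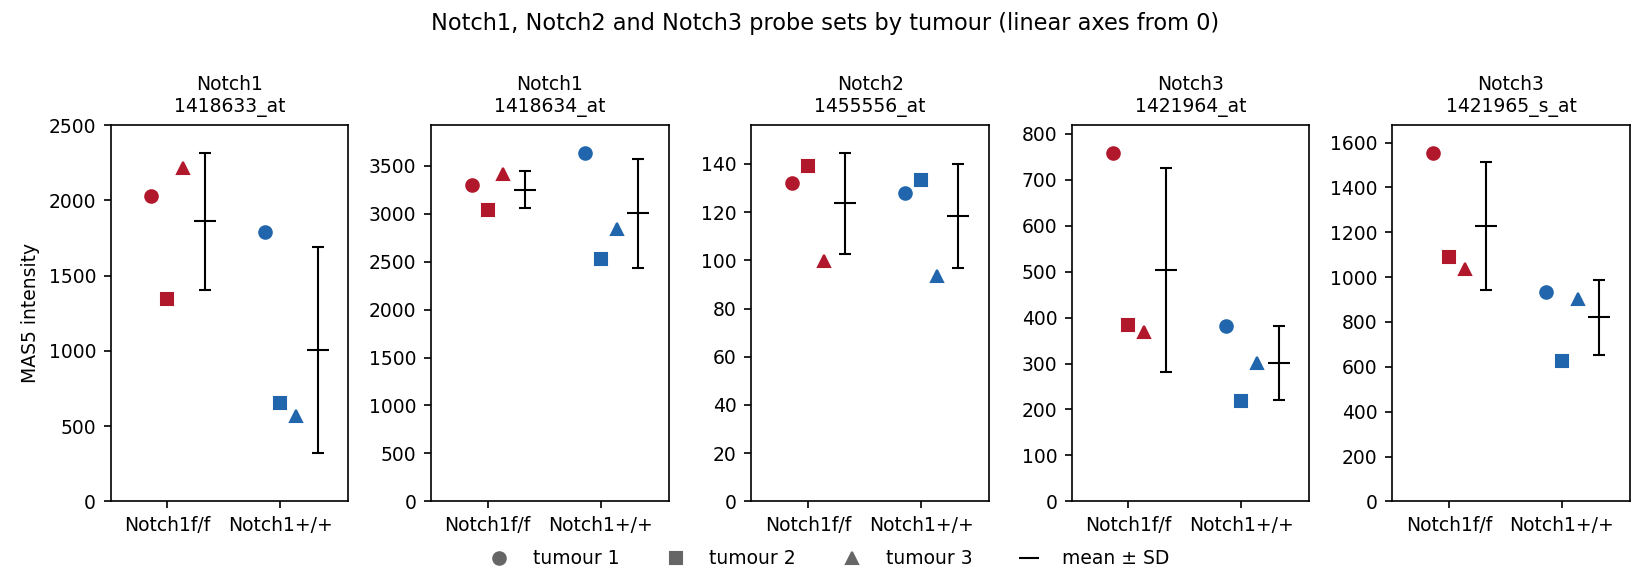
MAS5 intensity (linear axes from 0, each with its own range) of the receptor probe sets that were tested, in 3 Notch1f/f and 3 Notch1+/+ tumours. Symbols are single tumours and bars are the mean ± SD. On Notch3 1421965_s_at all Notch1f/f tumours, at 1036 or more, lie above all Notch1+/+ tumours, at 932.0 or less.

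On the other Notch1 probe set, 1418633_at, the tumours were spread far more widely. It had 2026, 1346 and 2211.5 in Notch1f/f tumours 1, 2 and 3, and 1792.5, 656 and 568 in Notch1+/+ tumours 1, 2 and 3. Notch1+/+ tumour 1 lay within the Notch1f/f range, while Notch1+/+ tumours 2 and 3 lay below all 3 Notch1f/f tumours. The log2 difference was 1.04 ± 0.40 (SE), a 2.06-fold higher level in the Notch1f/f tumours, with a 95% interval of 0.15 to 1.94 (limma adjusted p = 0.319, exact permutation p = 0.2). Without Notch1+/+ tumour 1 the log2 difference was 1.55 (limma adjusted p = 0.116), and without Notch1+/+ tumour 3 it was 0.74 (limma adjusted p = 0.548).

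Whether the probe sets of Notch1 differed unequally was read from their log2 ratio within each array. The ratio of 1418633_at over 1418634_at was -0.70, -1.17 and -0.62 in Notch1f/f tumours 1, 2 and 3, and -1.01, -1.92 and -2.29 in Notch1+/+ tumours 1, 2 and 3. The mean was -0.83 ± 0.29 in Notch1f/f tumours and -1.74 ± 0.66 in Notch1+/+ tumours (SD, n = 3 each), a difference of 0.91. The exact two-sided permutation test gave p = 0.2, where 3 tumours against 3 cannot go below 0.1. Notch1f/f tumour 2 had a lower ratio than Notch1+/+ tumour 1, so the groups overlapped. The same difference of ratios was 0.10 for the pair of Notch3 probe sets. Across the 6 tumours, Pearson's r of the log2 values was 0.875 between the Notch1 probe sets and 0.968 between the Notch3 probe sets, given as a description of 6 points.

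**Figure D2:**
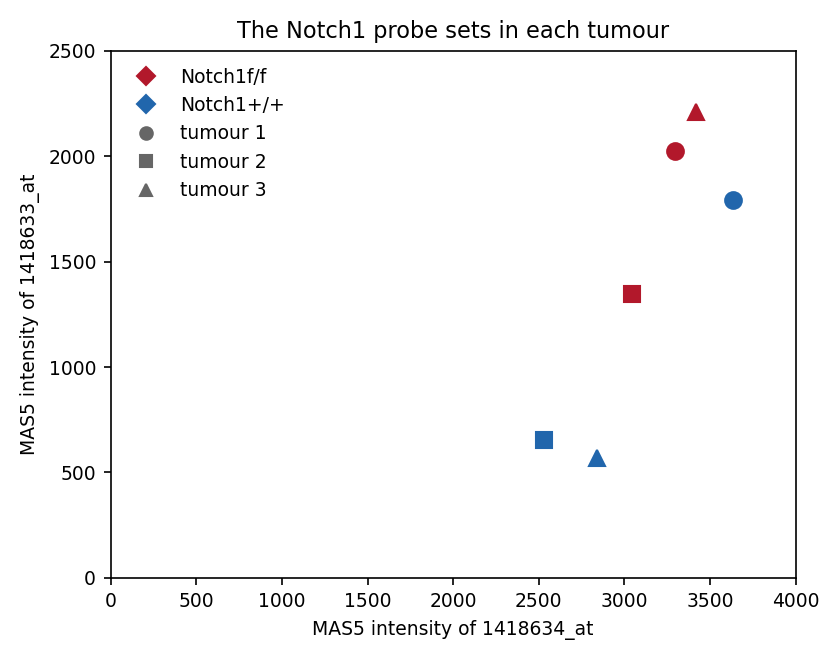
MAS5 intensity of Notch1 probe set 1418633_at (vertical) against 1418634_at (horizontal), 1 point per tumour, both axes linear from 0. Notch1+/+ tumours 2 and 3 lie low on the vertical axis, at 656 and 568, while on the horizontal axis all 6 tumours lie between 2532 and 3636.5.

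Notch3, a receptor that Notch1 signalling itself induces in thymocytes, was the member whose groups separated on a bright probe set. On 1421965_s_at it had 1555, 1091 and 1036 in Notch1f/f tumours 1, 2 and 3, and 932.0, 626 and 903 in Notch1+/+ tumours 1, 2 and 3. All 3 Notch1f/f tumours lay above all 3 Notch1+/+ tumours, and Notch1f/f tumour 1 was the highest. The log2 difference was 0.57 ± 0.23 (SE), a 1.49-fold higher level, with a 95% interval of 0.05 to 1.09 (limma adjusted p = 0.337, exact permutation p = 0.1). The suffix of this probe set marks oligonucleotides that can match more than 1 transcript.

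The other Notch3 probe set, 1421964_at, had 759, 385 and 368 in Notch1f/f tumours 1, 2 and 3, and 381, 219 and 302.0 in Notch1+/+ tumours 1, 2 and 3. Notch1f/f tumour 1 was again the highest, and Notch1f/f tumour 3 lay below Notch1+/+ tumour 1, so the groups overlapped. The log2 difference was 0.67 ± 0.32 (SE; limma adjusted p = 0.389). Without Notch1f/f tumour 1 the log2 differences were 0.39 on 1421965_s_at and 0.34 on 1421964_at (limma adjusted p = 0.647 and 0.707). The summed T cell markers were higher in the same 3 tumours, and their part in the Notch3 values was not tested.

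Notch2, which in lymphoid tissue is known for its role in marginal zone B cells, differed little between the genotypes. Its brighter probe set, 1455556_at, had 132, 139.0 and 99.6 in Notch1f/f tumours 1, 2 and 3, and 128, 133 and 93.6 in Notch1+/+ tumours 1, 2 and 3. The ranges nearly coincided, and 1 tumour of each genotype was lower than its other two. Its log2 difference was 0.06 ± 0.25 (SE), with a 95% interval of -0.50 to 0.61 (limma adjusted p = 0.935). The dimmer probe set, 1451889_at, had 2.6 to 7.6 in Notch1f/f tumours and 5.8 to 12.3 in Notch1+/+ tumours. It did not pass the filter, and the exact permutation test gave p = 0.3.

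Notch4, a receptor best known in endothelium, was dim on all 3 of its probe sets, and none passed the filter. They had 3.6 to 9.4 in Notch1f/f tumours and 0.9 to 12.8 in Notch1+/+ tumours over the 3 probe sets together. Every one of the 3 had overlapping groups, with log2 differences of 0.13, -0.04 and 0.02 and exact permutation p of 0.5, 0.9 and 1.0.

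The ligands were dim in every tumour, and only the Jag2 probe sets reached an intensity above 15.8. Dll1, a Delta-type ligand, had 9.9, 12.2 and 13.1 in Notch1f/f tumours 1, 2 and 3, and 9.7, 8.1 and 8.4 in Notch1+/+ tumours 1, 2 and 3. The Notch1f/f values were all higher, by a margin of 9.9 against 9.7 between the nearest tumours. Dll1 had a log2 difference of 0.16 ± 0.16 (SE; limma adjusted p = 0.671, exact permutation p = 0.1). Of the 10 tested probe sets of receptors and ligands, Dll1 and Notch3 1421965_s_at were the 2 with groups that did not overlap. Over all tested probe sets, 18.6% did not overlap in either direction. Both of the 2 were higher, against 8.13% of all tested probe sets that were higher without overlap. None of the 10 was lower without overlap, against 10.4%.

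Dll4, the thymic ligand of Notch1, had 7.0, 14.9 and 12.4 on 1421827_at in Notch1f/f tumours 1, 2 and 3, and 8.7, 5.1 and 12.3 in Notch1+/+ tumours 1, 2 and 3. The groups overlapped, with a log2 difference of 0.15 ± 0.19 (SE; limma adjusted p = 0.755). Its other probe set, 1421826_at, had 1.3 to 5.4 in Notch1f/f tumours and 0.7 to 1.8 in Notch1+/+ tumours, and did not pass the filter.

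Jag1, a Jagged-type ligand, had 7.7, 15.8 and 13.9 on 1421105_at in Notch1f/f tumours 1, 2 and 3, and 6.7, 10.1 and 6.7 in Notch1+/+ tumours 1, 2 and 3. Notch1f/f tumours 2 and 3 were above all Notch1+/+ tumours, but Notch1f/f tumour 1 was not, and the log2 difference was 0.25 ± 0.18 (SE; limma adjusted p = 0.563). The probe sets below the filter went both ways. On 1421106_at Jag1 had 0.6 to 8.2 in Notch1f/f tumours and 1.0 to 4.9 in Notch1+/+ tumours, and on 1434070_at 0.4 to 5.9 in Notch1f/f tumours and 4.5 to 8.3 in Notch1+/+ tumours.

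Jag2, the other Jagged-type ligand, had 24.3, 15.0 and 26.1 on 1426430_at in Notch1f/f tumours 1, 2 and 3, and 27.1, 38.6 and 16.9 in Notch1+/+ tumours 1, 2 and 3. On 1426431_at it had 20.1, 7.6 and 23.3 in Notch1f/f tumours 1, 2 and 3, and 3.6, 36.5 and 10.6 in Notch1+/+ tumours 1, 2 and 3. Notch1+/+ tumour 2 was the highest on both probe sets and Notch1f/f tumour 2 was below the other Notch1f/f tumours on both. The log2 differences were -0.19 ± 0.26 and 0.10 ± 0.36 (SE; limma adjusted p = 0.774 and 0.923), with overlapping groups on both.

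**Figure D3:**
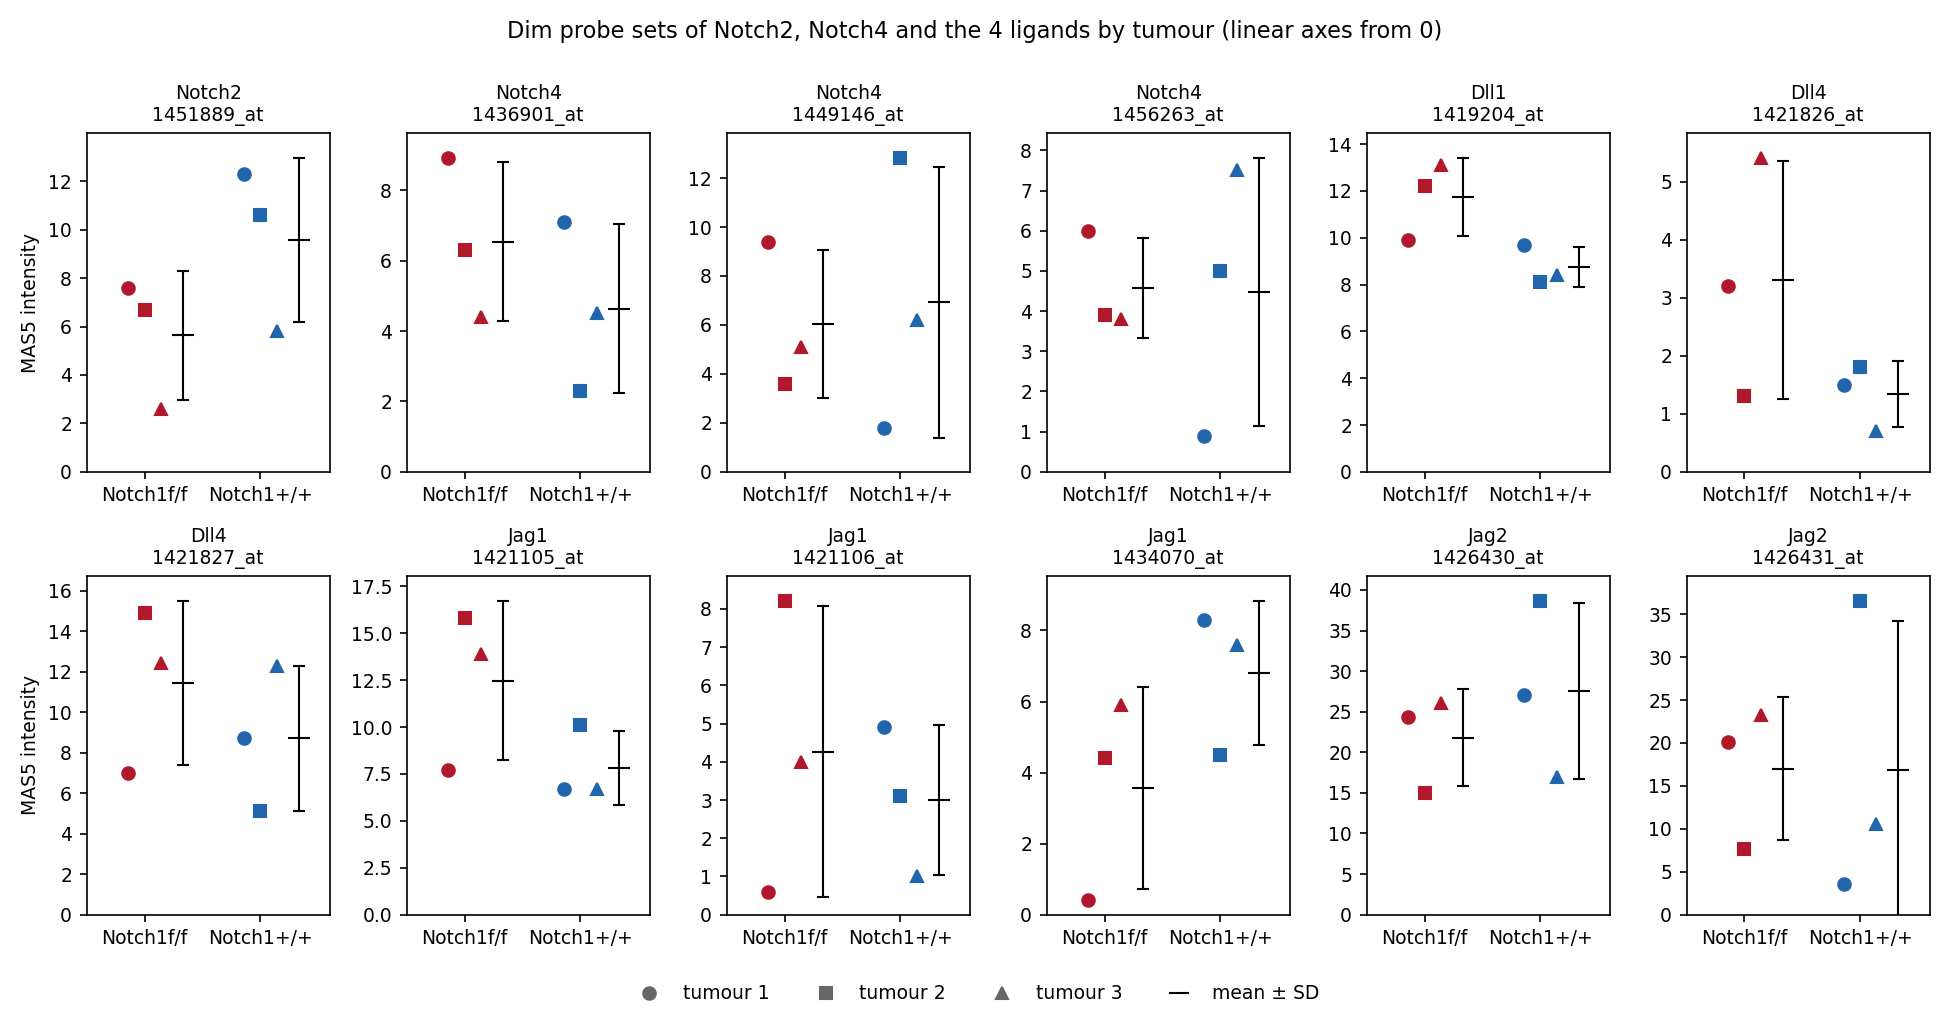
MAS5 intensity (linear axes from 0, each with its own range) of the other probe sets, which are 1 of Notch2, 3 of Notch4 and 8 of the ligands, in Notch1f/f and Notch1+/+ tumours. Symbols are single tumours, bars are the mean ± SD, and a bar that would pass below 0 ends at the axis. Apart from Dll1 the groups overlap, and the highest value is 38.6, of Jag2.

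Most markers of the cells that are known to present Notch ligands in the thymus were dim. Of 13 thymic epithelial markers, 12 stayed under an intensity of 100 on every array. Foxn1, the transcription factor of thymic epithelium, had 2.3 to 15.6, and Psmb11, a proteasome subunit of cortical epithelium, had 0.4 to 4.1. The summed intensity of the 13 was 202 to 264 in Notch1f/f tumours and 168 to 260.4 in Notch1+/+ tumours. Without its brightest marker, Ly75, it was 142.4 to 203.2 and 117.8 to 227.7, in the same order. Of 12 endothelial markers, 10 stayed under 100, and the sum was 340 to 449 in Notch1f/f tumours and 254 to 570.4 in Notch1+/+ tumours. Without its brightest marker, Pecam1, the endothelial sum was 124.2 to 242.5 in Notch1f/f tumours and 126.5 to 298.8 in Notch1+/+ tumours. Pecam1 had 125.0 to 271.6 and Eng 16.9 to 157.7, while Cdh5, the cadherin of endothelial junctions, did not exceed 7.3. No marker of either list was listed at 0 on any array.

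**Figure D4:**
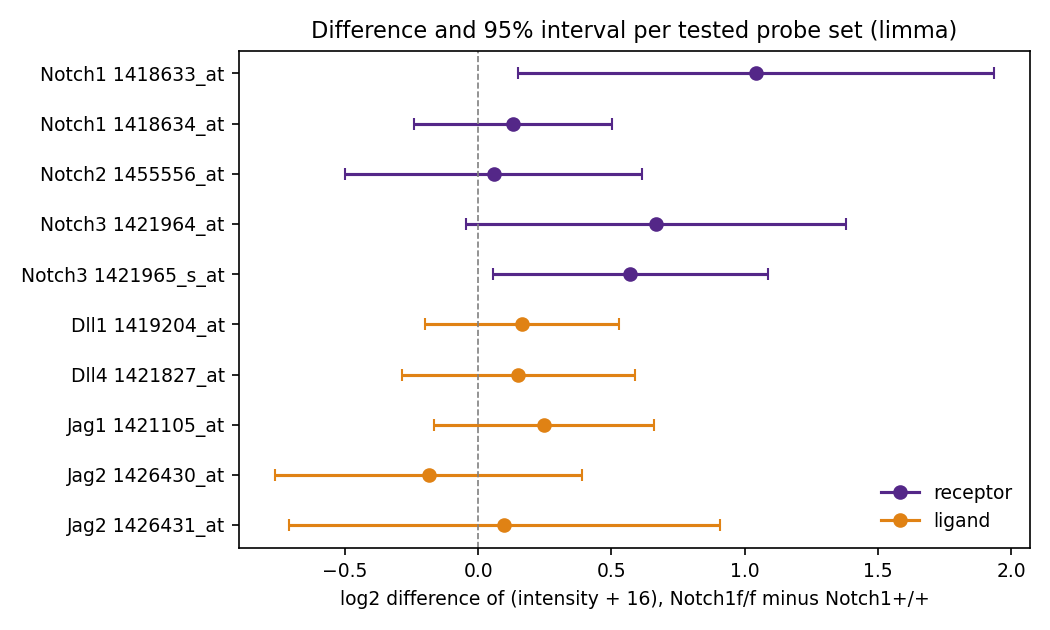
Log2 difference of (intensity + 16), Notch1f/f minus Notch1+/+, for the 10 tested probe sets, with 95% intervals from limma (horizontal axis) and receptors above ligands. The interval lies above 0 for Notch1 1418633_at (0.15 to 1.94) and Notch3 1421965_s_at (0.05 to 1.09), before any adjustment for the 27022 probe sets tested, and spans 0 for the other probe sets.

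Across the 6 tumours, Pearson's r of the log2 values was 0.618 to 0.708 between Notch1 and Notch3 probe sets, while r between Notch2 and the Notch1 and Notch3 probe sets was -0.04 to 0.22. These values describe 6 points that include the difference between genotypes. The genes most like each member were those with the highest r among 22435 tested probe sets with 1 symbol, and values near 1 are easily reached with 6 points and so many candidates. For Notch1 1418634_at they were Ptpn23, a phosphatase of endosomal sorting, Casc3, a part of the exon junction complex, and Csnk1d, a casein kinase (r of 0.996, 0.993 and 0.993). For Notch3 1421965_s_at they were Irak1, a kinase of Toll-like and interleukin-1 receptor signalling, Taok1, a kinase, and Tfdp2, a partner of E2F factors (r of 0.996, 0.994 and 0.990). Irak1 had 170.0 to 239 in Notch1f/f tumours and 96.8 to 147.5 in Notch1+/+ tumours. For Notch2 1455556_at they were Slc35a1, Polq and Lztfl1 (r of 0.995, 0.985 and 0.983). For the dim ligands they were Hmgn1, Gnpda1 and Pigu for Dll1, Gm38402, Hacd4 and Dntt for Dll4, Adat2, Commd7 and Zfp931 for Jag1, and Gys1, Slc15a1 and Pla2g2c for Jag2 (r of 0.969 to 0.997).

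The genes that act around the receptors and ligands were taken as 6 lists, of which 71 genes with 165 probe sets were on the array and 138 probe sets of 62 genes were tested. None passed an adjusted p of 0.05 in limma. Before adjustment, 25 had p under 0.05, which is 18.1% of the 138, against 13.5% of all tested probe sets. The groups did not overlap for 27, which is 19.6%, against 18.6% of all tested probe sets. The median log2 difference over the 138 was -0.08, against -0.04 over all.

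The other ligands, which include the Delta-like Dll3, were also dim. Of 10 probe sets for Dll3, Dlk1, Dlk2, Dner and Cntn1, the highest intensity on any array was 18.3, and 1 passed the filter. That probe set, of Dlk1, an inhibitor-type relative of the Delta ligands, had a log2 difference of 0.01 ± 0.19 (SE; limma adjusted p = 0.984).

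Among the glycosyltransferases that set how receptors respond to ligands, 13 probe sets of 8 genes were tested, 2 above and 11 below 0, with a median of -0.15. The exception in size was Lfng, a Fringe enzyme that strengthens the response of Notch to Delta ligands. Lfng had 51.7, 44.3 and 24.5 in Notch1f/f tumours 1, 2 and 3, and 4.6, 15.2 and 5.3 in Notch1+/+ tumours 1, 2 and 3. All Notch1f/f values were higher, with a log2 difference of 1.20 ± 0.27 (SE; limma adjusted p = 0.202), while its other probe set did not exceed 1.6 on any array. Eogt and Pofut1, enzymes that attach sugars to the receptor's repeats, overlapped between the groups on all 3 tested probe sets of each, with log2 differences of -0.61 to -0.0037 for Eogt and -0.35 to -0.08 for Pofut1.

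Of 17 tested probe sets for the proteases that cut the receptors, 8 were above and 9 below 0, with a median of -0.01. Furin, which cuts the receptor precursor, had 109, 80.0 and 169 in Notch1f/f tumours 1, 2 and 3, and 38.3, 63.4 and 52.8 in Notch1+/+ tumours 1, 2 and 3, without overlap (log2 difference 0.97 ± 0.30, SE; limma adjusted p = 0.290). The 3 tested probe sets of Adam10, which makes the cut that follows ligand binding, disagreed. The brightest, 1428103_at, averaged 764 in Notch1f/f tumours and 762 in Notch1+/+ tumours (log2 difference -0.0088; limma adjusted p = 0.988), and 1450105_at had a log2 difference of -0.79 (limma adjusted p = 0.322). On 1450104_at Adam10 had 38.4, 103.5 and 50.2 in Notch1f/f tumours 1, 2 and 3, and 102.5, 154 and 158 in Notch1+/+ tumours 1, 2 and 3 (log2 difference -1.01 ± 0.33, SE; limma adjusted p = 0.295). The groups overlapped on all 3 probe sets of Adam10. Adam17, a related protease, also overlapped on all 3, with log2 differences of -0.52 to -0.06.

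The 39 tested probe sets of ubiquitin ligases and endocytic adaptors that handle ligands and receptors had a median of 0.03, with 22 above and 17 below 0. Nedd4, a ligase, had lower values without overlap on 2 of its 3 tested probe sets, with log2 differences of -0.97 to -0.50 over the 3. Its brightest, 1451109_a_at, averaged 384 ± 70.8 in Notch1f/f tumours and 736 ± 266 in Notch1+/+ tumours (SD, n = 3 each; limma adjusted p = 0.291). Aak1, a kinase of endocytosis, was lower without overlap on 1 of 5 tested probe sets, the dim 1420025_s_at, at 14.8 ± 9.12 in Notch1f/f tumours and 39.3 ± 10.3 in Notch1+/+ tumours (SD, n = 3 each; limma adjusted p = 0.295). Its brightest, 1434935_at, averaged 1046 in Notch1f/f tumours and 1119 in Notch1+/+ tumours, with overlap (log2 difference -0.11). Dtx1, a ligase that Notch induces, had log2 differences of 0.49 on its brighter probe set, without overlap (limma adjusted p = 0.295), and 0.05 on the other.

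The nuclear partners of cleaved Notch had 24 tested probe sets, 12 on each side of 0, with a median of 0.06. Rbpj, which encodes CSL, had lower values without overlap on 2 of its 3 tested probe sets, at log2 differences of -0.83 and -0.35, and -0.03 on the third. Kdm5a, a corepressor, was higher without overlap on 1 of 5 tested probe sets, 1437106_at, at a log2 difference of 0.92 (limma adjusted p = 0.258). The others overlapped, with 0.26 on the brightest, 1437105_at, and -0.29 on 1444842_at. The corepressor Cir1 and the deacetylase Hdac1, with 1 tested probe set each, had log2 differences of 1.26 and -0.57 (limma adjusted p = 0.291 and 0.297).

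Among 46 tested probe sets of 18 target genes, 14 were above and 32 below 0, with a median of -0.36 over probe sets. Before adjustment, p under 0.05 was reached on the lower side by 10 probe sets of 4 genes, Ccnd1, Skp2, Igf1r and Shq1, and on the higher side by 2 probe sets of 2 genes, Hes1 and Dtx1, against 7.6% of all tested probe sets on the lower side and 5.94% on the higher side. Hes1, a repressor that Notch induces directly, had 451, 154.3 and 784 in Notch1f/f tumours 1, 2 and 3, and 93.0, 149.7 and 247 in Notch1+/+ tumours 1, 2 and 3. Notch1f/f tumour 2 lay below Notch1+/+ tumour 3, so the groups overlapped (log2 difference 1.25; limma adjusted p = 0.354). Gata3 and Lef1, transcription factors of T cell development, each had 1 probe set that was higher without overlap, with log2 differences of 0.44 and 0.25 (limma adjusted p = 0.369 and 0.451). Nrarp, another gene of the target list, went the other way, with log2 differences of -1.44 and -1.43 (limma adjusted p = 0.485 and 0.457). On 1417985_at Nrarp had 543, 338 and 54.9 in Notch1f/f tumours 1, 2 and 3. In Notch1+/+ tumours 1, 2 and 3 it had 269, 407 and 2290, and the groups overlapped on both probe sets. Ccnd1, the cyclin D1 gene, was lower without overlap on all 3 of its probe sets, with log2 differences of -2.33 to -2.08. On 1417419_at it had 1.7, 13.2 and 4.8 in Notch1f/f tumours 1, 2 and 3, and 58.3, 194 and 71.8 in Notch1+/+ tumours 1, 2 and 3 (limma adjusted p = 0.119). The fibroblast marker Col1a2, a collagen chain, had 13.2, 39.8 and 71.3 in Notch1f/f tumours 1, 2 and 3, and 190.1, 978 and 53.3 in Notch1+/+ tumours 1, 2 and 3, and like Ccnd1 was highest in Notch1+/+ tumour 2. Its groups overlapped, and the part of fibroblast RNA in the Ccnd1 values was not tested. Skp2, a ubiquitin ligase subunit of the cell cycle, was lower without overlap on 2 of 6 tested probe sets, with log2 differences of -1.62 to -0.31 over the 6. Igf1r, a growth factor receptor, was lower without overlap on 1 of 5, its dimmest, with log2 differences of -0.91 to -0.03 over the 5. Several probe sets of the same gene are not independent.

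**Figure D5:**
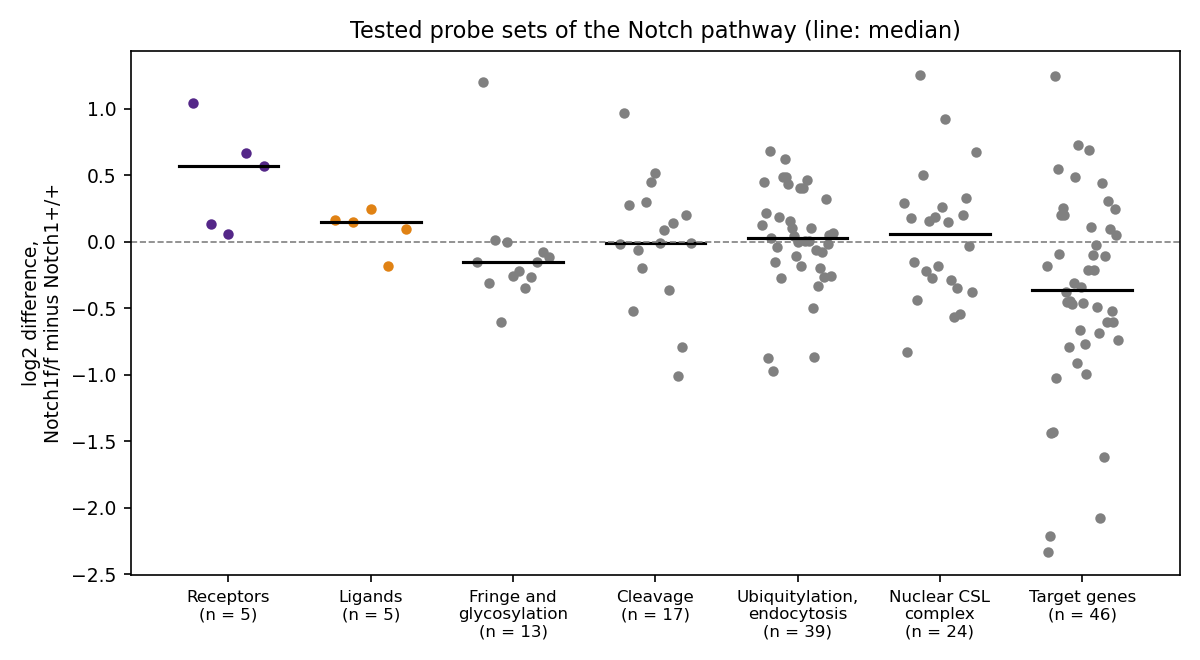
Log2 difference of (intensity + 16), Notch1f/f minus Notch1+/+ (vertical axis), for each tested probe set of the receptors, the ligands and 5 lists of Notch pathway genes, with a line at each median. The 10 receptor and ligand probe sets lie between -0.19 and 1.04, and the target genes spread from -2.33 to 1.25. None passed an adjusted p of 0.05.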

How the data were processed

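Affymetrix mouse 3′ arrays measured biotin-labelled RNA of 6 tumours, 1 array each. The intensities deposited by the authors are linear MAS5 signals, 1 per probe set, according to the submitters' processing notes, and each array had been scaled to the same trimmed mean. Detection calls were not used here. Replicates were numbered in accession order, groups came from the genotype label, and all sample columns were used.

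Of 45101 probe sets, 64 controls were left out. Gene symbols came from the platform annotation, in which 34945 probe sets had 1 symbol, 932 several and 9160 none, and Entrez identifiers of all 8 members matched RefSeq. The added constant before taking log2 was 16, and probe sets with a mean under the 40th percentile were not tested, which left 27022. The comparison used limma 3.58.1 (lmFit, then eBayes with trend = TRUE; R 4.3.3), as Notch1f/f minus Notch1+/+, two-sided, with Benjamini-Hochberg adjustment. The fit was tested on simulated data. Single values had an exact permutation test. Figures used matplotlib 3.10.9.

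The members, gene lists and tests were chosen with earlier results of these data known. Genes named are all members, up to 3 genes per list with the smallest p, those past the threshold, and the 3 genes most correlated with each member's brightest tested probe set. Rbpj, Hes1, Nrarp, Gata3, Lef1, Shq1, Col1a2, Pecam1, Eng, Rag1, Rag2, Ptcra and Zap70 were added after the values were seen. So were Pdgfrb, Col3a1, Col1a1, Col6a1, H2-Aa, H2-Ab1, H2-Eb1, Flt3, Siglech, Zbtb46, Xcr1, Adgre1 and Blk. Marker sums were split by their brightest gene, also after the values were seen. Alternatives were pseudocounts of 1 and 64, a filter at the 60th percentile or none, array weights, eBayes without a trend, median centring, quantile normalisation, and each array left out.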

Additional observations from a re-analysis of the deposited data

How the results depend on the processing

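The 10 tested probe sets of receptors and ligands were refitted under up to 14 alternatives each, 135 values in all. Of these, 130 kept their direction and stayed on the same side of an adjusted p of 0.05, and 5 changed sign. No member passed 0.05 under any of the 14, and the lowest adjusted p was 0.116, for Notch1 1418633_at without Notch1+/+ tumour 1. Its log2 difference ranged from 0.74 to 1.55 with each array left out, and that of Notch3 1421965_s_at from 0.39 to 0.68. The changes of sign were of values near 0, with Notch2 1455556_at from -0.082 to 0.19 and Jag2 1426431_at from -0.21 to 0.50 with each array left out, and Jag2 1426431_at at -0.17 with array weights. The cause was not tested. Ligand differences rest on signals near the dimmest that were tested, and with no filter the ligands stay without a call. At the filter, Dll4 1421827_at lay just inside, at a mean log2 level of 4.69, and Notch2 1451889_at just outside, at 4.55. The 60th percentile filter removed all ligand probe sets. The difference of the Notch1 ratio ranged from 0.64 to 1.28 with each array left out and was 0.93 and 0.87 with a pseudocount of 1 and 64. Over all probe sets, 5 were called, 3 with no filter, 15 with median centring and 27 with array weights, and 2 to 14 with each array left out. No probe set of the 6 pathway lists was called with any array left out. No paired analysis was possible because the labels give the tumours no shared replicate numbers.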
